A study of Mus musculus with 11 samples.

Results

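The comparison described here set sorted β-cells of insulin-treated *Raptor*-knockout mice against sorted wild-type β-cells. It used 7 of the 11 RNA-sequencing libraries of the series, chosen by their sample titles alone, 4 labelled as knockout with insulin treatment (insulin-treated KO) and 3 labelled as wild type (WT). The insulin-treated KO mice were BetaRapKOGFP-/- animals that carried a source of insulin, which the sample labels call a pellet and the study's methods an osmotic pump with human insulin. WT mice were littermates with both *Raptor* alleles, and the remaining 4 libraries came from BetaRapKOGFP-/- mice without insulin (untreated KO). All mice were 8 weeks old and of a C57BL/6 x 129SV background, and all carried RIP-Cre, a recombinase driven by the rat insulin promoter, together with a GFP reporter at *Rosa26*, so that cells were collected as GFP-positive cells of dispersed islets. Any cell in which the insulin promoter had once been active keeps the GFP label. Whether a library came from 1 mouse or from pooled mice is not given in the sources used here, so the spread between libraries may be partly technical. WT mice received no insulin, so knockout and insulin treatment differ together between WT and insulin-treated KO.

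Raptor is the scaffold subunit of mTOR complex 1 (mTORC1), a kinase complex that couples nutrient and growth factor signals to translation, ribosome production and lipid synthesis. Adult β-cells are known for strong expression of insulin, of the glucose transporter GLUT2 (*Slc2a2*) and of the zinc transporter of insulin granules (*Slc30a8*), and for keeping hormones of other islet cells and a group of "disallowed" metabolic genes very low. Insulin given to diabetic mice lowers blood glucose, and the comparison addresses which expression differences from WT are found in mutant β-cells of mice treated in this way.

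Expression was deposited as FPKM, a fragment count scaled to transcript length and library size, so that levels can also be compared between genes. Fits were made on log2(FPKM + 1) with limma, over 11251 genes that reached 1 FPKM in 3 or more libraries, and a gene was called when its Benjamini-Hochberg adjusted p was at most 0.05 and its change at least 1.5-fold on that scale. Fold changes on this scale understate those of low genes. Depth, inferred from the steps between low values, was 11879830 to 13746176 fragments in WT and 9506156 to 16659222 in insulin-treated KO libraries.

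*Rptor*, which encodes Raptor (ENSMUSG00000025583, chromosome 11 from 119602905 to 119899576 of GRCm38), was measured at 0.948, 1.36 and 1.79 FPKM in WT and at 0.423, 0.481, 0.623 and 0.438 FPKM in insulin-treated KO. All 4 insulin-treated KO libraries lay below all 3 WT libraries. The gene did not reach the level required for the fit, and a two-sided exact permutation test of the log2 values gave p = 0.0286, the smallest that 4 libraries against 3 can give. The value covers the whole gene and not the deleted part alone.

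The β-cell label held in every library. *Ins1* was at 71701 to 101797 FPKM in WT and at 47726 to 76616 FPKM in insulin-treated KO, and *Ins1* and *Ins2* together made up 25.9 to 40.5% of all FPKM in WT and 17.5, 19.2, 21.5 and 36.5% in insulin-treated KO, so that replicate 4 alone reached the WT range. *Iapp*, which encodes the co-secreted peptide amylin, was at 28608 to 45864 FPKM in WT and 45738 to 53379.5 FPKM in insulin-treated KO. None of the 3 genes was called by limma. The log2 fold change of *Ins1* was −0.65 (standard error 0.32, adjusted p = 0.393), that of *Ins2* −0.40 (standard error 0.44, adjusted p = 0.702) and that of *Iapp* 0.52 (standard error 0.29, adjusted p = 0.443). Without replicate 4, whose *Ins2* level of 78674 FPKM was above all WT libraries (37819 to 63931 FPKM), the median of the 3 was −0.77 in place of −0.40 and 2 of them were lower at an unadjusted p of at most 0.05, against 0 with all libraries. *Pdx1*, *Nkx6-1*, *Mafa*, *Slc2a2* and *Ucn3*, the other β-cell markers examined, were above 8 FPKM in all 7 libraries.

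The 4 insulin-treated KO libraries were not alike, and replicate 4 deviated most. Its Euclidean distance from the others over the genes tested was 81.9 to 94.6, while the other 3 lay 47.4 to 61.7 apart. It had 13095 genes above 0, against 17194 to 17329 in the other 3, and 517 of the genes tested were at 0 in it, against 25 to 33 in the other 3. It also had the lowest depth of the group. It held the lowest value of all 11 libraries in 3051 of the genes tested and the highest in 1366. Among WT, replicate 1 stood apart, at distances of 67.5 and 67.6 from the other 2, which lay 37.3 apart, and its nearest library was insulin-treated KO replicate 3, at 49.3. Counts over each gene list described here are therefore given without one of these libraries where that changed the number of calls by over 1.5 times.

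**Figure D1:**
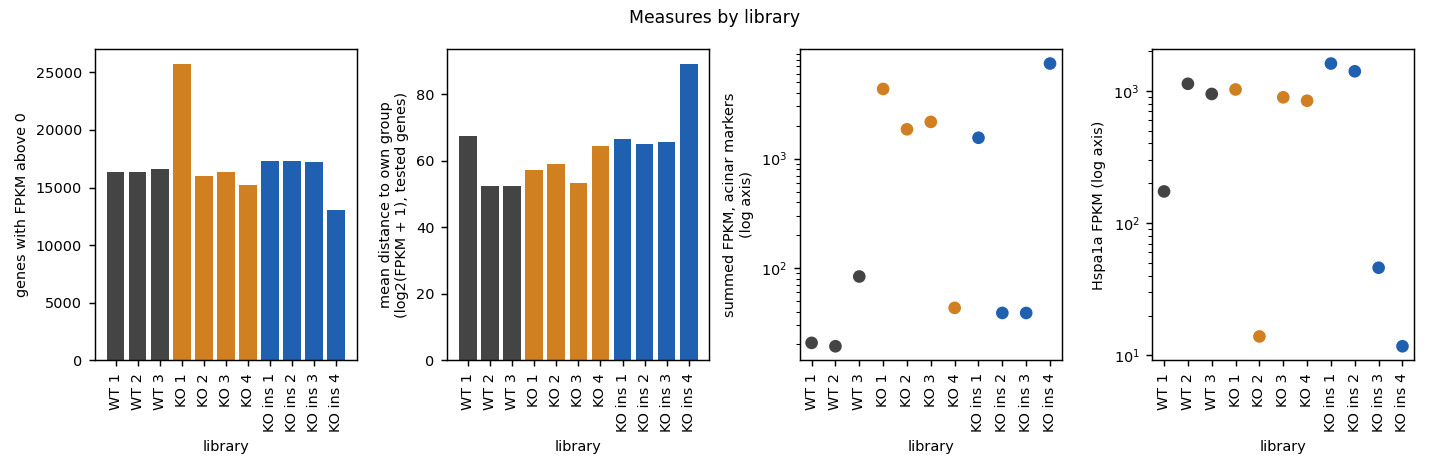
Measures of each library (KO ins: insulin-treated KO), namely the number of genes above 0, the mean distance to libraries of its own group, the summed FPKM of 30 acinar marker genes (log axis) and the FPKM of *Hspa1a* (log axis). Insulin-treated KO replicate 4 has the fewest genes above 0 (13095), the largest distance (89.0), the highest acinar sum (7404) and the lowest *Hspa1a* level (11.7 FPKM).

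The largest gaps between replicate 4 and the mean of the other insulin-treated KO libraries, among genes with a mean of at least 10 FPKM in the group, were found in exocrine genes. *Prss2*, *Try4*, *Cela2a*, *Try5*, *Clps*, *Ctrb1*, *Cel* and *Pnlip*, which encode digestive enzymes or their cofactor made by acinar cells, made up 8 of the 10. *Try4*, a trypsin gene, was at 219, 0.925, 0.415 and 1071 FPKM in insulin-treated KO and at 0.454, 0.631 and 9.21 FPKM in WT. Replicates 1 and 4 were thus high, and replicates 2 and 3 lay within or below the WT range. Over all 30 acinar markers, the summed level was 1551, 38.8, 38.8 and 7404 FPKM in insulin-treated KO, 19.2 to 83.6 FPKM in WT and 43.2 to 4336 FPKM in untreated KO. Of the 30, 2, 12, 9 and 1 were at 0 in insulin-treated KO replicates 1 to 4. None of the 27 acinar markers tested was called, and 9 of the 27 were below 1 FPKM in every WT library and were tested through KO libraries alone.

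The other 2 of these 10 genes moved the opposite way. The histone gene *Hist2h2aa1* was at 219, 218, 82.9 and 0 FPKM, and *Gm10501* was at 418, 360, 12.6 and 0 FPKM in insulin-treated KO. In both, 80.8 to 100% of the exon bases overlap another gene, so reads of the partner cannot be told apart. *Gm10501* lies beside the heat-shock genes, and these, chosen after their values were seen, followed the same order. *Hspa1a*, which encodes an inducible HSP70 chaperone, was at 1607, 1403, 46.0 and 11.7 FPKM in insulin-treated KO and at 174, 1130.0 and 946 FPKM in WT. *Dnajb1*, an HSP40 co-chaperone gene, was at 1708, 1613, 126 and 48.2 FPKM and at 403, 1304 and 977 FPKM in the same order. In both groups some libraries were high and others low, so the groups overlapped throughout. The immediate early gene *Fos* (2073, 602, 76.5 and 55.7 FPKM, against 172, 972 and 565 FPKM in WT) and *Txnip*, a glucose-responsive inhibitor of thioredoxin (90.6, 151, 10.1 and 5.17 FPKM, against 14.0, 233 and 193 FPKM), had the same low libraries, namely replicates 3 and 4 of insulin-treated KO and replicate 1 of WT. Neither was called (adjusted p = 0.779 and 0.585 from limma).

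Between insulin-treated KO and WT, 62 genes were called, which is 0.551% of those tested. Of these, 40 were higher in insulin-treated KO (0.356%) and 22 lower (0.196%), and 59 are annotated as protein-coding. Before adjustment, 825 genes were higher (7.33%) and 734 lower (6.52%) at p of at most 0.05. All 4 insulin-treated KO libraries lay above all WT libraries in 665 genes (5.91%) and below them in 565 genes (5.02%). The median log2 fold change of all genes tested was −0.01.

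The number of calls depended on single libraries. Without WT replicate 1 there were 322 higher and 214 lower genes (2.86% and 1.90% of those tested), and 61 of the 62 genes were among them. Without WT replicate 3 there were 7 higher and 5 lower genes, and without insulin-treated KO replicate 4 there were 43 higher and 18 lower (0.382% and 0.160%), of which 47 belonged to the 62. All 62 genes kept their direction in each fit that left out a library. This was fixed in advance, because in all 62 every insulin-treated KO library lay outside the WT range. Only 12 were called in all 7 fits that left out 1 of the WT or insulin-treated KO libraries, namely *Serpina7*, *Pyy*, *Cd24a*, *Tmem212*, *Gc*, *Cd81* and *Cldn6* among the higher genes and *Cd79a*, *Scd2*, *2200002J24Rik*, *Slc2a2* and *Mslnl* among the lower ones. Each of the others lost its call in at least 1 of these fits. *Tmem212* was below 1 FPKM in every WT library and was tested only through KO libraries. *Mslnl* and *2200002J24Rik* were below 1 FPKM in every KO library and were tested only through WT libraries.

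**Figure D2:**
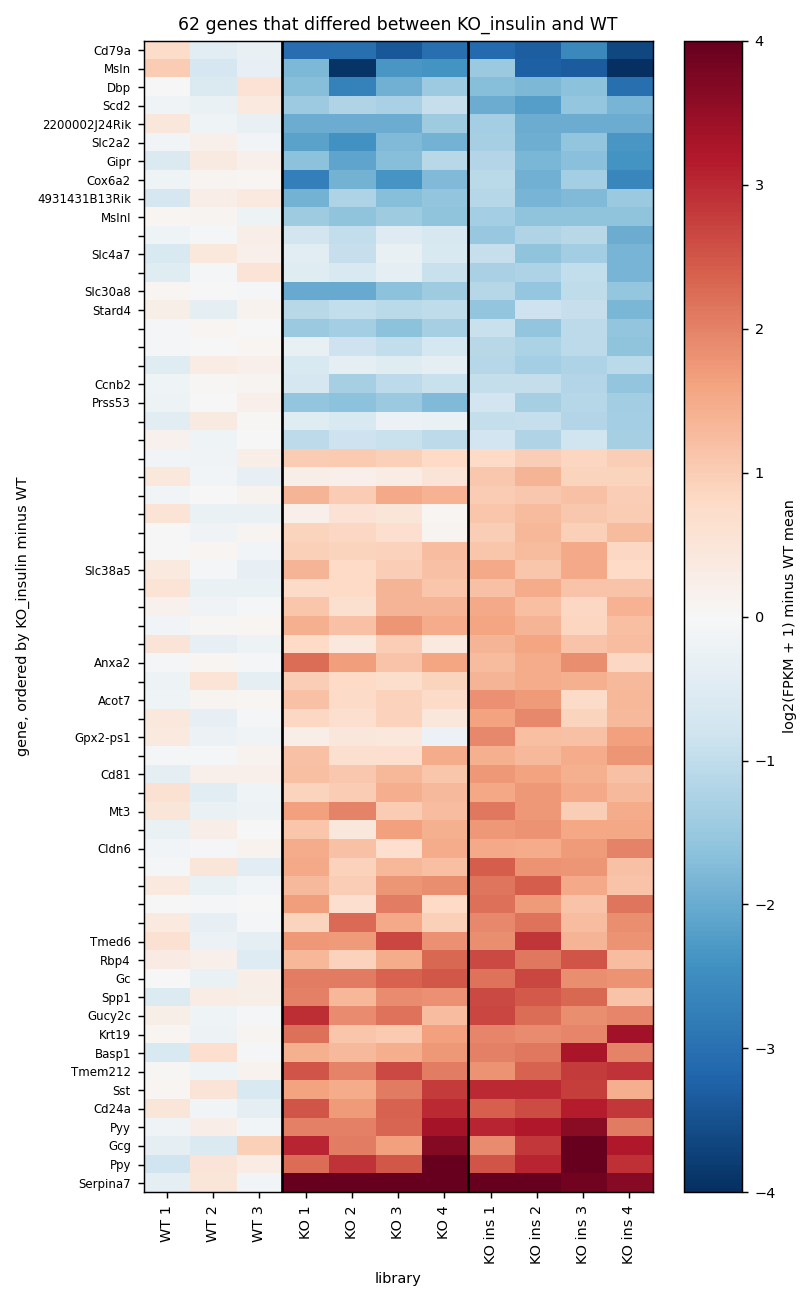
The 62 called genes (rows, ordered by fold change) in the 3 WT, 4 untreated KO and 4 insulin-treated KO (KO ins) libraries, as log2(FPKM + 1) minus the WT mean of each gene. Only genes named in the text are labelled. Blue marks values below and red values above the WT mean, and the 40 higher genes end with *Serpina7* (log2 fold change 4.39) while the 22 lower genes begin with *Cd79a* (−3.16).

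Hormone genes of other islet cells were among the largest rises. Of 10 genes in a list of non-β-cell islet hormones 8 were tested, of which 4 were called higher and 0 lower, against 0.356% and 0.196% of all genes, while the other 4 did not pass an unadjusted p of 0.05. The called hormones were *Ppy* (pancreatic polypeptide), *Gcg* (glucagon), *Pyy* (peptide YY) and *Sst* (somatostatin), and they were among the 6 largest called rises.

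*Gcg* (ENSMUSG00000000394, chromosome 2 from 62474530 to 62483650) was at 867, 734 and 2116 FPKM in WT and at 4093, 7786, 22921 and 10225 FPKM in insulin-treated KO. The lowest insulin-treated KO value was above the highest WT value, but the treated libraries were spread widely, with replicate 3 the highest and replicate 1 the lowest. By limma its log2 fold change was 3.07 (standard error 0.60, adjusted p = 0.0389). The call was lost without WT replicate 2 or 3 or insulin-treated KO replicate 2, 3 or 4, with a highest adjusted p of 0.232 over the fits that left out a library. *Ppy* was at 364, 909 and 782 FPKM in WT and at 3616, 5241, 12189.7 and 4873 FPKM in insulin-treated KO. The rise of *Ppy* was 3.18 on the log2 scale (standard error 0.50, adjusted p = 0.0149), and the call was lost without WT replicate 3 (adjusted p = 0.0758). Replicate 3 was the highest insulin-treated KO library for both hormones.

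*Pyy* was at 149, 198 and 155 FPKM in WT and at 1368, 1546, 2048 and 702 FPKM in insulin-treated KO, a log2 fold change of 2.98 (standard error 0.38, adjusted p = 0.00347). *Sst* was at 1854, 2469 and 1149 FPKM in WT and at 13670.2, 13782, 11827 and 4774 FPKM in insulin-treated KO, a log2 fold change of 2.55 (standard error 0.43, adjusted p = 0.0199). For both, replicate 4 was the lowest of the treated group and still above all WT libraries. Without it the log2 fold changes were 3.29 and 2.91, and *Sst* was not called without WT replicate 2 or 3 or insulin-treated KO replicate 1, 2 or 3 (highest adjusted p = 0.165). Together the 4 hormone genes made up 0.763 to 1.08% of all FPKM in WT, 4.84 to 11.4% in insulin-treated KO and 3.69 to 9.83% in untreated KO. In sorted bulk samples, more cells of a type and more RNA of these genes per cell cannot be told apart.

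Transcription factors of those cell types did not share the calls. *Irx2*, an α-cell homeobox gene, was at 0.186 to 0.494 FPKM in WT and 0.373 to 2.20 FPKM in insulin-treated KO. The groups overlapped, and the gene was not called (adjusted p = 0.398 from limma). Replicate 3, the library with the highest *Gcg* and *Ppy*, also had the highest *Irx2*. *Hhex*, a δ-cell factor, was at 1.13 to 2.72 FPKM in WT and at 12.7, 9.14, 5.18 and 0.945 FPKM in insulin-treated KO, so that 3 libraries lay above WT and replicate 4 below it (adjusted p = 0.369). *Peg3*, an imprinted zinc finger gene on the same list, had lower values, at 31.8, 61.0 and 62.8 FPKM in WT and at 24.2, 21.3, 27.0 and 24.4 FPKM in insulin-treated KO. The groups did not overlap, but the gene was not called (log2 fold change −1.01, adjusted p = 0.122). Of 14 α- and δ-cell transcription factors 8 were tested, 3 of them below 1 FPKM in every WT library, and 0 were called. Of the 8, 6 had a log2 fold change above 0, with a median of 0.47. At an unadjusted p of at most 0.05, 1 was higher and 1 lower, against 7.33% and 6.52% of all genes. Without insulin-treated KO replicate 4 the median was 0.62, with 4 higher and 1 lower, in a fit with 1660 of 11251 genes at such a p. Without WT replicate 1 there was 1 lower call, against 1.90% of all genes.

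Of 40 genes of an α-cell list 25 were tested, 6 of them below 1 FPKM in every WT library, and 4 were called higher and 0 lower, against 0.356% and 0.196% of all genes. Besides *Gcg* and *Pyy* these were *Gc*, which encodes the vitamin D-binding protein and is strongly expressed in α-cells, and *Slc38a5*, an amino acid transporter of α-cells. *Gc* was at 41.3, 34.1 and 49.7 FPKM in WT and at 190, 270, 152 and 145 FPKM in insulin-treated KO, with a log2 fold change of 2.13 (standard error 0.24, adjusted p = 0.00137). The narrow range within each group left a wide gap between them. *Slc38a5* was at 3.73 to 6.70 FPKM in WT and 9.17 to 15.7 FPKM in insulin-treated KO (log2 fold change 1.23, adjusted p = 0.0389). All 4 called members were above 1 FPKM in WT, and the fit without WT replicate 1 called 5 higher and 3 lower, against 2.86% and 1.90% of all genes. At an unadjusted p of at most 0.05, 12 of the 25 members were higher and 5 lower, against 7.33% and 6.52% of all genes. Of the 12, 3 were below 1 FPKM in every WT library. All insulin-treated KO libraries lay above all WT libraries in 11 members and below them in 1. Of 8 δ- and PP-cell markers tested, 3 were called higher and 0 lower, against 0.356% and 0.196% of all genes (1 lower without WT replicate 1, against 1.90%), and *Rbp4*, a retinol carrier of δ-cells, was the third beside *Sst* and *Ppy*. It was at 46.8, 42.8 and 25.4 FPKM in WT and at 239, 162, 215 and 88.7 FPKM in insulin-treated KO (log2 fold change 2.12, adjusted p = 0.0248).

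**Figure D3:**
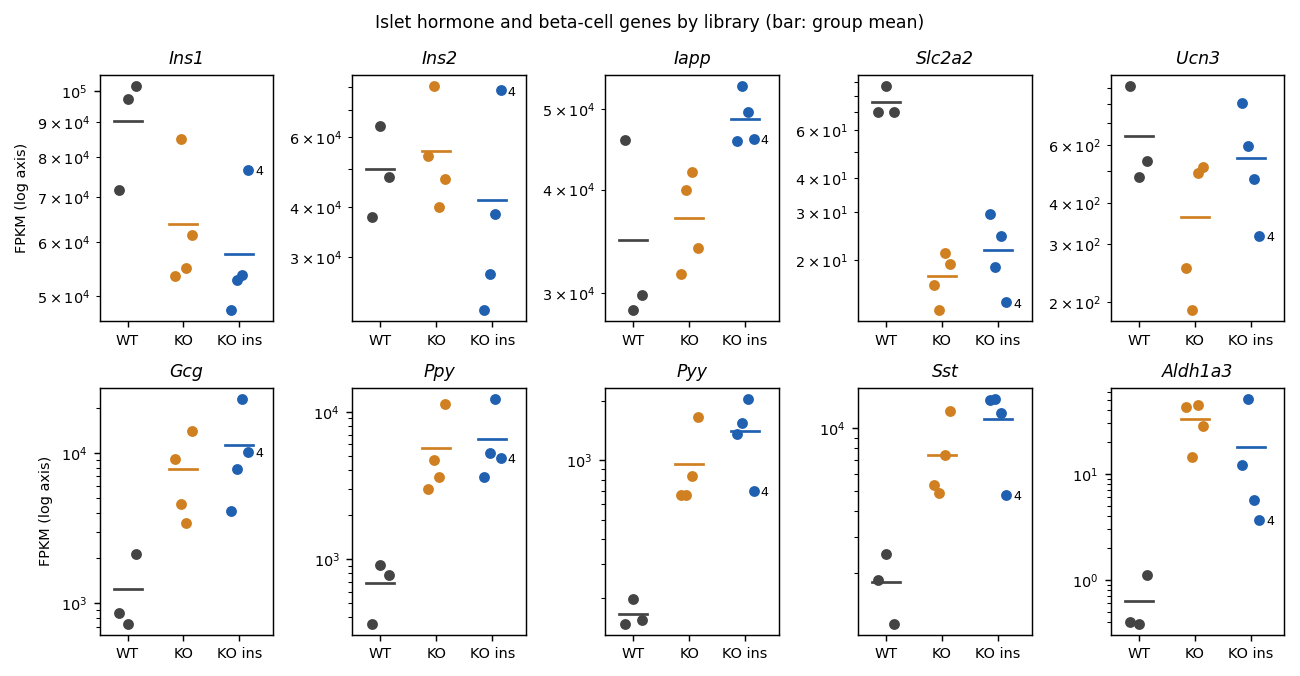
FPKM (log axis) of 10 islet genes in each library, with points for single libraries, bars for group means and the label 4 beside insulin-treated KO replicate 4. *Gcg*, *Ppy*, *Pyy* and *Sst* of insulin-treated KO (KO ins) lie above all WT points and *Slc2a2* lies below them, while *Ins2* and *Ucn3* overlap.

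Promoters of the 2 hormone genes with the largest rises are shown because both genes rose in the same libraries. The sequences are the 150 bases before the start of the RefSeq transcript on the minus strand of GRCm38.p6, written 5′ to 3′, with the letters TATAAA of a TATA box, searched on both strands, in capitals.
Gcg, chr2:62483654-62483803: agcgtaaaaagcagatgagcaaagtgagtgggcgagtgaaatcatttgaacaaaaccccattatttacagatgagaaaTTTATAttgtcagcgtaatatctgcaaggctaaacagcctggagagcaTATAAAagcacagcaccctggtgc
Ppy, chr11:102101320-102101469: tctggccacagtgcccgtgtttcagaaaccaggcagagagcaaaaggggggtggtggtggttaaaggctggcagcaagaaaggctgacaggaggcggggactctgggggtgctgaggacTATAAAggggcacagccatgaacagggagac
The letters begin 24 bases before the start in *Gcg*, where a reverse match lies further upstream, and 31 bases before it in *Ppy*. They occur in 7.57% of 32851 windows of this length in the table and in 3.15% of the 10774 windows of genes tested. Among the called genes, 41 have a promoter in the table, and 9 of their 49 windows (18.4%) hold the letters, those of *Serpina7*, *Rbp4* and *Tmem212* included. *Pyy* has no match in its 2 windows.

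Some genes of β-cell function fell, and most others of their list had lower values. Of 34 tested members of a list of β-cell function and maturity, 4 were called lower and 1 higher, against 0.196% and 0.356% of all genes. At an unadjusted p of at most 0.05, 17 were lower and 2 higher, against 6.52% and 7.33% of all genes. The median log2 fold change was −0.61. In 16 members all insulin-treated KO libraries lay below all WT libraries, against 5.02% of all genes. Leaving out WT replicate 1 gave 8 called lower, against 1.90% of all genes in that fit. The 4 that fell were *Slc2a2*, *Gipr*, *Cox6a2* and *Slc30a8*, and the 1 that rose was *Cd81*, a tetraspanin that marks immature β-cells.

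*Slc2a2* (ENSMUSG00000027690, chromosome 3), the glucose transporter GLUT2, was at 69.7, 87.0 and 70.0 FPKM in WT and at 29.6, 18.9, 24.5 and 14.0 FPKM in insulin-treated KO. Even the highest treated library was thus well under the lowest WT library. The log2 fold change was −1.79 (standard error 0.25, adjusted p = 0.00712 from limma), a 3.48-fold lower mean FPKM. *Slc30a8*, the zinc transporter ZnT8 of insulin granules, was at 712, 691 and 642 FPKM in WT and at 308, 231, 339 and 232 FPKM in insulin-treated KO (log2 fold change −1.31, standard error 0.22, adjusted p = 0.0195). *Gipr*, the receptor for the incretin GIP, was at 15.1, 30.2 and 27.0 FPKM in WT and at 9.74, 5.84, 6.61 and 3.57 FPKM in insulin-treated KO (log2 fold change −1.76, adjusted p = 0.0283). The calls of *Gipr* and *Slc30a8* were lost without WT replicate 2 or 3 or insulin-treated KO replicate 2, and that of *Gipr* also without replicate 3 (highest adjusted p = 0.197 and 0.106), while *Slc2a2* was called in every fit that left out a library.

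*Cox6a2*, a tissue-restricted subunit of cytochrome c oxidase, was at 124, 152 and 148 FPKM in WT and at 66.7, 36.0, 54.4 and 22.3 FPKM in insulin-treated KO (log2 fold change −1.74, adjusted p = 0.0389). Its call was lost without WT replicate 2 or 3 or insulin-treated KO replicate 2 or 3 (highest adjusted p = 0.206), and *Itgad*, on the other strand, covers 10.3% of its exon bases. *Glp1r*, the receptor for the incretin GLP-1, chosen after its values were seen, was at 61.4 to 147 FPKM in WT and at 37.7 to 53.0 FPKM in insulin-treated KO, and was not called (log2 fold change −1.13, adjusted p = 0.117). *Ucn3*, a maturity marker of adult β-cells, overlapped fully, with 911, 479 and 537 FPKM in WT and 805, 598, 474 and 319 FPKM in insulin-treated KO (log2 fold change −0.25, adjusted p = 0.811). Its direction turned without WT replicate 1 (0.03).

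None of the 19 tested β-cell transcription factors was called, while 5 were lower and 0 higher at an unadjusted p of at most 0.05, against 6.52% and 7.33% of all genes, and the median log2 fold change was −0.44. Of these factors, 2 were called lower without WT replicate 1, in a fit that called 1.90% of all genes lower. *Pdx1*, a master regulator of β-cell identity, was at 99.6, 76.6 and 96.0 FPKM in WT and at 81.9, 41.1, 59.5 and 52.1 FPKM in insulin-treated KO (log2 fold change −0.66, adjusted p = 0.275 from limma). *Mafa*, which activates insulin transcription in mature β-cells, was at 11.9, 53.5 and 62.2 FPKM in WT and at 16.7, 8.29, 15.3 and 27.1 FPKM in insulin-treated KO (log2 fold change −1.10, adjusted p = 0.343). WT replicate 1 was below 3 of the 4 treated libraries for *Mafa*, whereas the other 2 WT libraries were above all of them. *Nkx6-1* had a log2 fold change of −0.44 (adjusted p = 0.459). Of the insulin receptor to FoxO list, 0 of 23 members were called and 2 were lower at an unadjusted p of at most 0.05, against 6.52% of all genes. The counts depended on single libraries. Without WT replicate 1, 1 member was called lower, against 1.90% of all genes, and 6 had such a p. Without insulin-treated KO replicate 4, 0 had. *Irs2* was at 27.9 to 79.5 FPKM in WT and at 11.3 to 79.5 FPKM in insulin-treated KO. Of 18 genes of mTOR complexes and effectors, 0 were called and 0 passed an unadjusted p of 0.05.

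Several genes that mature β-cells keep low rose. Of 40 members of the disallowed list 15 were tested, and 7 of these were below 1 FPKM in every WT library, so that counts over the tested members are no measure of the list. Called higher were 3, *Serpina7*, *Gucy2c* and *Acot7*. *Serpina7* (ENSMUSG00000031271, chromosome X from 139079257 to 139085236), which encodes thyroxine-binding globulin, had the largest rise of the called genes on the log2(FPKM + 1) scale. It was at 4.76, 9.59 and 5.93 FPKM in WT and at 240, 252, 107 and 92.2 FPKM in insulin-treated KO, a 25.5-fold higher mean FPKM and a log2 fold change of 4.39 (standard error 0.37, adjusted p = 0.000269 from limma). Replicates 1 and 2 were above replicates 3 and 4, and all were far above WT. *Gucy2c*, the intestinal guanylyl cyclase C, was at 4.12 to 5.89 FPKM in WT and 20 to 36.1 FPKM in insulin-treated KO (log2 fold change 2.18, adjusted p = 0.0149), and *Acot7*, an acyl-CoA thioesterase tested only through its KO values, at 0.195 to 0.452 FPKM and 1.29 to 3.84 FPKM (log2 fold change 1.40, adjusted p = 0.0251). *Ldha*, the lactate dehydrogenase that β-cells keep silent, was at 0.0793, 0.422 and 0.0804 FPKM in WT and at 2.33, 1.98, 0.957 and 1.56 FPKM in insulin-treated KO. The groups did not overlap, but the gene was not called (log2 fold change 1.17, adjusted p = 0.152).

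Of 21 genes of a list of dedifferentiation and progenitor markers 12 were tested, 4 of them below 1 FPKM in every WT library. *Cd24a* and *Cd81*, both above 1 FPKM in every WT library, were called higher, against 0.356% of all genes called higher. *Cd24a*, a surface protein of islet progenitors, was at 11.2, 7.01 and 5.70 FPKM in WT and at 44.2, 51.8, 75.2 and 60.5 FPKM in insulin-treated KO (log2 fold change 2.73, standard error 0.30, adjusted p = 0.00137). *Cd81* was at 45.0 to 68.9 FPKM in WT and 137 to 203 FPKM in insulin-treated KO (log2 fold change 1.49, adjusted p = 0.00713). *Aldh1a3*, an aldehyde dehydrogenase that marks failing β-cells, was at 0.400, 0.385 and 1.11 FPKM in WT and at 12.1, 50.9, 5.61 and 3.66 FPKM in insulin-treated KO. Every treated library was above WT, but replicate 2 stood far above the others, and the gene was not called (log2 fold change 2.91, standard error 0.65, adjusted p = 0.0794). *Neurog3*, the endocrine progenitor factor, was at 0, 0.820 and 0.144 FPKM in WT and at 6.59, 2.89, 1.64 and 0 FPKM in insulin-treated KO (adjusted p = 0.324), and 16.3% of its exon bases overlap *Fam241b*.

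Sterol and fatty-acid synthesis genes, the targets of the SREBP transcription factors, were the list with the lowest median when all libraries were used. Of 35 tested members, 4 were called lower and 0 higher, against 0.196% and 0.356% of all genes. At an unadjusted p of at most 0.05, 22 were lower and 0 higher, against 6.52% and 7.33% of all genes. The median log2 fold change was −0.68. In 14 members all insulin-treated KO libraries lay below all WT libraries, against 5.02% of all genes. Without insulin-treated KO replicate 4, which had the lowest value of the group in many of these genes, 2 were called lower, against 0.160% of all genes. In that fit 15 were lower at an unadjusted p of at most 0.05, with a median of −0.59. Without WT replicate 1 the median was −0.68, with 4 members called lower and 1 higher, against 1.90% and 2.86% of all genes.

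Of the 4 genes that fell, 2 are described here. *Scd2*, a stearoyl-CoA desaturase that makes monounsaturated fatty acids, was at 36.9, 34.1 and 54.6 FPKM in WT and at 9.56, 8.05, 13.4 and 10.6 FPKM in insulin-treated KO (log2 fold change −1.90, standard error 0.22, adjusted p = 0.00183 from limma). The treated libraries were close to each other and a 4.02-fold lower mean FPKM separated them from WT.

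*Stard4*, a sterol carrier protein, was at 3.34 to 5.68 FPKM in WT and at 0.589 to 2.18 FPKM in insulin-treated KO (log2 fold change −1.29, adjusted p = 0.0468). The groups of both genes were separate. *Scd2* was called in every fit that left out a library. *Stard4* was called in 1 of the 7, the one without WT replicate 1, with a highest adjusted p of 0.253.

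The largest negative difference of the list was that of *Hmgcs1*, the HMG-CoA synthase of sterol synthesis, which was named after its values were seen and just missed the threshold. It was at 156, 87.0 and 126 FPKM in WT and at 13.3, 39.9, 44.4 and 7.74 FPKM in insulin-treated KO (log2 fold change −2.46, standard error 0.51, adjusted p = 0.0568). *Idi1*, the isopentenyl diphosphate isomerase, was at 13.2 to 28.2 FPKM in WT and at 4.52, 10.2, 10 and 2.35 FPKM in insulin-treated KO (adjusted p = 0.155), and *Insig1*, the sterol-regulated inhibitor of SREBP processing, at 37.8 to 59.4 FPKM and at 25.2, 36.0, 32.2 and 8.62 FPKM (adjusted p = 0.244). Replicates 1 and 4 were the lowest of the group in these 3 genes. The genes of the factors themselves were not called, with log2 fold changes of −0.78 for *Srebf1* (adjusted p = 0.248) and −0.62 for *Srebf2* (adjusted p = 0.304).

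**Figure D4:**
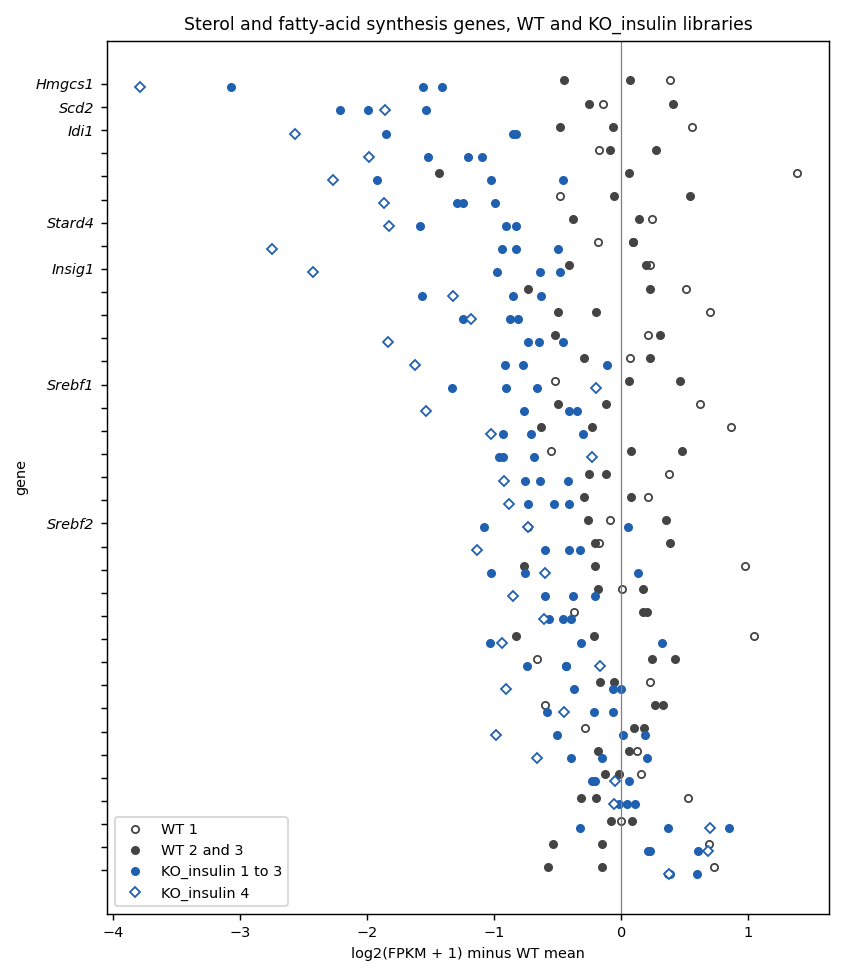
Each of the 35 tested sterol and fatty-acid synthesis genes (rows, ordered by fold change) in the WT libraries (grey, replicate 1 open) and the insulin-treated KO libraries (blue, replicate 4 as open diamonds), as log2(FPKM + 1) minus the WT mean. Of the 35 genes, 31 have a log2 fold change below 0 and 4 above 0, and the open diamond is the leftmost point of the row in *Hmgcs1*, *Idi1* and *Insig1*, among others. Only genes named in the text are labelled. KO_insulin in the picture stands for insulin-treated KO.

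The *Hmgcs1* promoter is shown as the one tested member of the list whose window holds the letters CACCCCAC, the core of a sterol regulatory element, searched on both strands and given in capitals. It is the 150 bases before the RefSeq start on the plus strand of GRCm38.p6.
Hmgcs1, chr13:119690201-119690350: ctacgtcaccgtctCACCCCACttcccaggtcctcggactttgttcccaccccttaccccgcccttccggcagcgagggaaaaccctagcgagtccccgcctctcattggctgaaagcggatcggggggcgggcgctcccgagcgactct
The letters begin 136 bases before the start. They occur in 1.67% of the 32851 windows of this length and in 1 of 34 windows (2.94%) of the 25 list members with a promoter in the table. No match says only that these letters are not in a window.

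Genes of the ribosome had mostly small positive differences, none of which was called. Of 75 tested cytosolic ribosomal protein genes, 0 were called, 40 were higher and 0 lower at an unadjusted p of at most 0.05 against 7.33% of all genes, and the median log2 fold change was 0.53. *Rps19*, a subunit of the small ribosomal particle, was at 9.91, 6.48 and 6.85 FPKM in WT and at 12.4, 13.8, 17.1 and 15 FPKM in insulin-treated KO (log2 fold change 0.85, adjusted p = 0.0806 from limma). The groups were separate, and WT replicate 1 was the highest WT library. Without WT replicate 1 the median was 0.71 and 21 members were called higher, in a fit that called 2.86% of all genes higher. Without insulin-treated KO replicate 4 it was 0.52 and 0 were called. Many ribosomal protein genes have processed pseudogenes, with which their reads may be shared.

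Nuclear genes of the respiratory chain had a median log2 fold change of 0.40 over 75 tested members. Of these, 16 were higher and 1 lower at an unadjusted p of at most 0.05, against 7.33% and 6.52% of all genes. *Cox6a2* was the only called member, against 0.196% of all genes called lower. Without WT replicate 1 the median was 0.64, with 16 members called higher, against 2.86% of all genes. Of 13 genes of the mitochondrial genome, 0 were called and the median was −0.24 (−0.13 without WT replicate 1), and *mt-Nd5*, a complex I subunit, was at 409 to 461 FPKM in WT and 281 to 336 FPKM in insulin-treated KO (log2 fold change −0.49, adjusted p = 0.297). In these libraries the untreated KO lay lower in both lists, with medians against the same WT libraries of −0.21 and −0.82. In the test of insulin-treated against untreated KO, 54 of the 75 nuclear members were higher and 0 lower at an unadjusted p of at most 0.05, against 10% of all genes tested that were higher and 10.6% that were lower in this contrast.

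Among 41 tested antioxidant genes, 0 were called (5 higher without WT replicate 1, against 2.86% of all genes), and 8 were higher and 2 lower at an unadjusted p of at most 0.05, against 7.33% and 6.52% of all genes. *Gstp1* (62.8 to 78.2 FPKM against 28.7 to 49.7 FPKM in WT, adjusted p = 0.0744), a glutathione transferase, and *Txn1* (68.2 to 78.8 FPKM against 32.1 to 46.1 FPKM, adjusted p = 0.077), thioredoxin, had separate groups. The interferon and antigen presentation list had a median of 0.51 with 0 of 35 members called, and a median of 0.37 without insulin-treated KO replicate 4. Its summed level was 967, 461 and 512 FPKM in WT and 729, 693, 1836 and 1103 FPKM in insulin-treated KO. WT replicate 1 was thus above treated replicates 1 and 2. *H2-D1*, a class I molecule and 1 of 2 members with all treated libraries above WT, was at 154 to 212 FPKM in WT and 257 to 292 FPKM in insulin-treated KO (adjusted p = 0.213). In the list of endoplasmic reticulum chaperones, 0 of 40 were called and 9 were higher and 1 lower at an unadjusted p of at most 0.05, against 7.33% and 6.52% of all genes. The calls rose to 7 higher without WT replicate 1, against 2.86% of all genes, and without insulin-treated KO replicate 4, 16 were higher at an unadjusted p of at most 0.05. *Creld2*, a secretory pathway stress gene, was at 486, 178 and 244 FPKM in WT and at 483, 861, 569 and 538 FPKM in insulin-treated KO (adjusted p = 0.163).

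In the circadian clock list, 1 of 20 tested members was called lower and 1 higher, against 0.196% and 0.356% of all genes. These counts were 4 and 2 without WT replicate 1, against 1.90% and 2.86% of all genes. They were 1 and 0 without insulin-treated KO replicate 4, against 0.160% and 0.382% of all genes. *Dbp*, an output transcription factor of the clock, was at 26.9, 18.1 and 41.7 FPKM in WT and at 7.62, 7.09, 8.13 and 2.51 FPKM in insulin-treated KO (log2 fold change −2.04, standard error 0.38, adjusted p = 0.0344 from limma). The groups were separate. The call was lost without WT replicate 2 or 3 or insulin-treated KO replicate 1, 2 or 3 (highest adjusted p = 0.222), and 18.0% of the exon bases of *Dbp* overlap *Sphk2*. The time of day of cell collection is not given in the sources used here.

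Of 29 tested immediate early genes, 0 were called (2 lower without WT replicate 1, against 1.90% of all genes). At an unadjusted p of at most 0.05, 5 were lower and 1 higher, against 6.52% and 7.33% of all genes. *Npas4*, an activity-dependent factor, was at 2.49, 46.0 and 42.1 FPKM in WT and at 3.88, 4.46, 2.19 and 3.34 FPKM in insulin-treated KO (log2 fold change −2.13, adjusted p = 0.202). WT replicate 1 was at the level of the treated libraries. *Egr4*, at 8.03 to 11.2 FPKM in WT and 1.33 to 4.55 FPKM in insulin-treated KO, had separate groups (adjusted p = 0.107). *Cebpd*, a C/EBP transcription factor, was at 68.7 to 90.2 FPKM in WT, at 157, 70.1, 91.8 and 182 FPKM in insulin-treated KO and at 14.9 to 52.6 FPKM in untreated KO. It was not called against WT (log2 fold change 0.55, adjusted p = 0.547), and its difference from untreated KO was 2.09 on the log2 scale (95% confidence interval 1.3 to 2.88, adjusted p = 0.0846).

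Several of the largest changes were in genes outside the list of β-cell function. *Cd79a*, a subunit of the B-cell antigen receptor complex, had the largest fall on the log2(FPKM + 1) scale, from 20.1, 8.20 and 9.22 FPKM in WT to 0.453, 0.277, 1.10 and 0 FPKM in insulin-treated KO (log2 fold change −3.16, standard error 0.30, adjusted p = 0.000626 from limma). It was the only called gene of 11 immune markers tested, against 0.196% of all genes called lower. The summed level of the whole list of 25 was 47.3 to 66.6 FPKM in WT and 62.6 to 133 FPKM in insulin-treated KO. *Msln*, mesothelin, which the study counts among β-cell-enriched genes, was at 128, 38.9 and 49.8 FPKM in WT and at 22.0, 5.70, 5.38 and 2.59 FPKM in insulin-treated KO (log2 fold change −3.05, adjusted p = 0.0468, lost in 6 of the 7 fits that left out a library, with a highest adjusted p of 0.177). The neighbouring gene *Mslnl* was at 1.66 to 2.31 FPKM in WT and at 0.183, 0, 0 and 0 FPKM in insulin-treated KO (adjusted p = 0.00137), and *2200002J24Rik* at 2.22 to 4.37 FPKM and at 0.541, 0, 0 and 0 FPKM (adjusted p = 0.00643).

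*Slc4a7*, a sodium bicarbonate cotransporter, was at 10.3 to 22.0 FPKM in WT and 3.70 to 7.98 FPKM in insulin-treated KO (log2 fold change −1.45, adjusted p = 0.0389). *4931431B13Rik* (2.29 to 5.82 FPKM against 0.415 to 1.33 FPKM, adjusted p = 0.025) shares 27.0% of its exon bases with *Itgad*. *Prss53*, chosen after its values were seen, was at 579 to 766 FPKM in WT and 257 to 396 FPKM in insulin-treated KO (log2 fold change −1.15, adjusted p = 0.0251), and 84.0% of its exon bases lie in an overlapping gene model. The cyclin gene *Ccnb2* was the only called member of 26 cell cycle genes tested (1.70 to 2.25 FPKM in WT, 0 to 0.568 FPKM in insulin-treated KO). Of all genes, 0.196% were called lower.

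Among the called genes, 4 belonged to the list of duct markers, 3 of them higher, against 0.356% higher and 0.196% lower of all genes. Of the 17 markers 13 were tested, and 4 of these were below 1 FPKM in every WT library. *Krt19* and *Anxa2* were among those tested through KO libraries alone. *Krt19*, a duct keratin, was at 0.810, 0.505 and 0.853 FPKM in WT and at 5.61, 5.37, 5.67 and 16.5 FPKM in insulin-treated KO, with replicate 4 the highest (log2 fold change 2.29, adjusted p = 0.0149, and 1.93 without replicate 4). Its call was lost without WT replicate 2 or 3 (highest adjusted p = 0.0996). *Spp1*, osteopontin, was at 2.93 to 6.00 FPKM in WT and at 34.8, 30.5, 27.1 and 11.7 FPKM in insulin-treated KO (log2 fold change 2.14, adjusted p = 0.0149), and *Anxa2*, an annexin, was at 0.214 to 0.309 FPKM and 1.21 to 3.53 FPKM (adjusted p = 0.0485). The summed level of the 17 duct markers overlapped between the groups, at 971 to 2819 FPKM in WT and 1218 to 3026 FPKM in insulin-treated KO. The fourth called member was *Msln*, which fell and was not called without WT replicate 1 or insulin-treated KO replicate 4. Summed endothelial markers were at 6.37 to 9.12 FPKM in WT and 8.80 to 10.8 FPKM in insulin-treated KO, and mesenchymal markers at 0.468 to 1.85 FPKM and 0 to 2.44 FPKM. The part of other cell types in the changes was not tested.

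Other large rises were those of *Tmem212* (0.470 to 0.824 FPKM in WT, 4.78 to 11.3 FPKM in insulin-treated KO, log2 fold change 2.46, adjusted p = 0.00137), *Basp1*, a membrane-bound signal protein of neurons (0.748 to 3.24 FPKM and 9.68 to 24.9 FPKM, 2.35, adjusted p = 0.009), and *Tmed6*, a cargo receptor of the secretory pathway (14.4 to 29.9 FPKM and 51.0 to 146 FPKM, 1.97, adjusted p = 0.0313). *Tmem212* was tested only through its KO values. *Mt3*, a metallothionein, was at 1.41 to 3.11 FPKM in WT and 4.82 to 11.5 FPKM in insulin-treated KO (log2 fold change 1.58, adjusted p = 0.0389), and was called in 2 of the 7 fits that left out a library (highest adjusted p = 0.232). The pseudogene *Gpx2-ps1* was at 4.17 to 6.96 FPKM in WT, 12.7 to 22.2 FPKM in insulin-treated KO and 4.25 to 7.42 FPKM in untreated KO, and may share reads with *Gpx2*. It was called against WT (log2 fold change 1.48, adjusted p = 0.0197) and was named after its values were seen.

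The called genes were then set beside untreated KO. None of the 62 differed between insulin-treated and untreated KO at an adjusted p of at most 0.05 from limma (lowest adjusted p = 0.0911, that of *Gpx2-ps1*), while 20 passed an unadjusted p of 0.05. The 62 were chosen on the insulin-treated KO values, which are also in this contrast, so that the count of 20 is a description. Of the 20, 2 were nearer to WT in insulin-treated than in untreated KO. Over all genes tested, this contrast called 1 gene (0.00889%), *Esm1*, a marker of endothelial cells named after its value was seen, which was lower in insulin-treated than in untreated KO (log2 difference −1.66). Of the other 80 tested genes named here, 0 were called and 19 passed an unadjusted p of 0.05. Without WT replicate 1, which is in neither group but in the estimate of the spread, 7 of them were called, *Cebpd*, *Gpx2-ps1*, *Psmb10*, *Txn1* and *Gstp1* higher and *Peg3* and *Npas4* lower in insulin-treated KO.

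For single genes the differences from untreated KO had wide intervals. *Scd2* was at 14.2 to 21.0 FPKM in untreated KO, between the ranges of WT and insulin-treated KO, and its difference was −0.67 on the log2 scale (95% confidence interval −1.12 to −0.23, adjusted p = 0.136). Over the sterol list, 8 of 35 members were lower and 1 higher than in untreated KO at an unadjusted p of at most 0.05, against 10.6% and 10% of all genes. For the hormones, the intervals included 0, at −0.72 to 1.67 for *Gcg*, −0.77 to 1.25 for *Ppy*, −0.18 to 1.33 for *Pyy* and −0.32 to 1.42 for *Sst*. For *Slc2a2* the difference was 0.27 (interval −0.23 to 0.77, adjusted p = 0.523) and for *Serpina7* −0.05 (interval −0.80 to 0.69, adjusted p = 0.944). *Slc30a8* was at 166 to 251 FPKM in untreated KO and its difference was 0.47 (interval 0.03 to 0.91, adjusted p = 0.218).

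**Figure D5:**
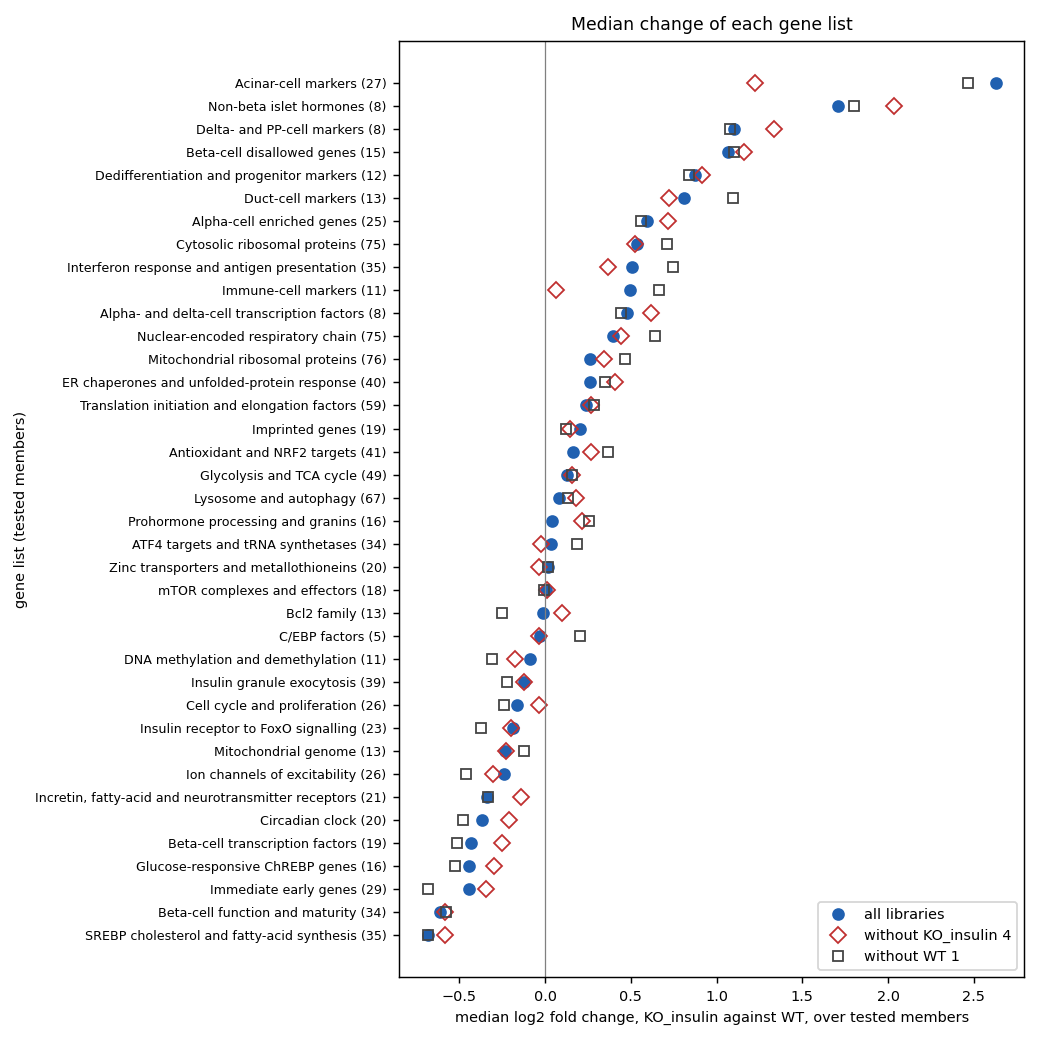
Median log2 fold change of insulin-treated KO (KO_insulin) against WT over the tested members of each gene list with at least 5 of them (number in brackets), with all libraries (filled circles), without insulin-treated KO replicate 4 (red open diamonds) and without WT replicate 1 (open squares). With all libraries the sterol list has the lowest median (−0.68) and the acinar list the highest (2.63), which is 1.22 without replicate 4. Members low in WT enter a list's median only where KO libraries reached the filter, as 9 of the 27 acinar genes did.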

How the data were processed

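RNA-sequencing covered 11 libraries of β-cells sorted by GFP, of which 3 WT and 4 insulin-treated KO libraries were compared. FPKM values per gene were deposited by the authors and were not normalized further. The study's methods name Tophat and Cufflinks on mm10, while the submitters' processing notes name HISAT2 2.0.4, StringTie 1.3.0 and edgeR, so which tools made the table is not settled. The table has 34745 entries, 34267 of them matched to a symbol of GENCODE vM21 (GRCm38). Of repeated symbols the entry with the highest mean was kept, which left 34728. Fragment totals are not part of the table and were inferred from the steps between low values of single-exon genes.

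limma 3.58.1 in R 4.3.3 (lmFit, eBayes with a trend) was fitted to log2(FPKM + 1) with all 11 libraries, which share 1 estimate of the spread, over 11251 genes that reached 1 FPKM in 3 or more libraries. On simulated data of this comparison over 11251 genes, 80 of 200 genes changed 2-fold and 186 of 200 changed 4-fold were called. The changed genes had a mean log2(FPKM + 1) above 3, and the simulated noise was independent with no deviating library. The counts therefore do not hold for low genes or for libraries that stand apart. Genes under the filter were tested by exact permutation.

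The genes named were the 15 largest rises and 15 largest falls among the called genes, in each list up to 6 called members or, with none called, up to 3 with the lowest p, a set of islet genes, and the 10 genes with the largest gap between insulin-treated KO replicate 4 and the other replicates. Genes named outside this rule are marked in the text, except those listed for being called in every fit that left out a library. The comparison, the lists and the genes were chosen with earlier results of these data known. Promoters are from RefSeq. Alternatives were another pseudocount, other filters, TPM, the median of ratios, only the 7 libraries, the replicate number as a block, library weights, no trend and leaving out each library. Python 3.11.15 with numpy 2.4.6, pandas 2.3.3 and scipy 1.17.1 was used. Some items that fell under the rule are not reported here.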

Additional observations from a re-analysis of the deposited data

Results flagged for a closer look

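Among the 4 insulin-treated KO libraries, 1 library stood apart from the other 3 by Dixon's gap ratio (gap to the nearest library over the range, compared with the 95% critical value for 4 libraries) in 6 of the genes named, on the log2(FPKM + 1) scale. Replicate 4 was the low library for *Sst* (ratio 0.856) and *Dbp* (0.873) and the high one for *Krt19* (0.953). Replicate 3 was the high library for *Basp1* (0.920). Replicate 1 was the only library above 0 for *2200002J24Rik* and *Mslnl* (ratio 1 in both). Chance flags about 1 in 20 groups, and 81 genes were examined.

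Replicate 4 also stood apart in its number of genes above 0 (ratio 0.968), in the number of tested genes at 0 (0.984) and in its mean distance to its own group (0.938).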

How the results depend on the processing

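Of 40 higher and 22 lower genes in insulin-treated KO, the counts became 41 and 10 with a pseudocount of 0.1, which moved the share of higher genes among the called from 64.5 to 80.4%, 8 and 5 with no filter on low values (27403 genes tested), 30 and 14 after rescaling to TPM, 12 and 5 with only the 7 libraries, 15 and 5 with the replicate number as a block, and 1308 and 979 with library weights. Leaving out 1 WT or insulin-treated KO library gave 7 to 322 higher and 5 to 214 lower genes, both extremes by WT libraries. Without WT replicate 1 and insulin-treated KO replicate 4 together, a choice made after seeing the data, there were 721 and 477. All 62 genes that were tested again kept their direction in each of these. For the fits that left out libraries this was fixed in advance, since every insulin-treated KO library lay outside the WT range in all 62. Where fewer libraries or more genes enter, the smaller residual degrees of freedom or the larger number of tests are part of the construction, and for the other changes the cause was not tested. Scaling by the median of ratios (43 and 24), a minimum of 5 FPKM (40 and 17) and no trend (39 and 22) kept both counts within 1.5 times.

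Replicate numbers did not pair the samples. Same-numbered WT and insulin-treated KO libraries had a mean correlation of −0.11 over 3 pairs (−0.20 to 0.04), against 0.03 for 9 pairs with different numbers, so the block of 15 higher and 5 lower calls is no measure of a weaker effect. *Rptor* differed by −0.79 to −0.53 on the log2 scale without 1 library, and the exact p was then the smallest these group sizes allow, which is above the threshold. The number of named genes that differed between insulin-treated and untreated KO was 0 to 7 without 1 library, 10 with library weights and 10 without both doubted libraries.

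Of the named genes, 3 changed direction, none of them called. *Ucn3* (−0.25) was at 0.20 with library weights and 0.27 without both doubted libraries, and between −0.46 and 0.034 without 1 library. *Fos* (−0.75) was between −1.72 and 0.0087 without 1 library. *Hist2h2aa1* (−0.15) was at 0.50 with the block, 2.34 with weights and 2.74 without both doubted libraries, and between −0.91 and 1.68 without 1 library. At the inferred depths, low genes and absent ones are not separable.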
